A study of Mus musculus with 6 samples.

Results

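The replication-dependent histone genes supply the core histones H2A, H2B, H3 and H4 and the linker histone H1 while DNA is copied. Members were all genes of the GENCODE GRCm38 annotation whose symbol begins with Hist1h, Hist2h, Hist3h or Hist4h, and 70 of 55450 annotated genes met this rule. Of these, 67 are protein-coding and 3 are pseudogenes (Hist1h2aj, Hist1h2al and Hist3h2bb-ps). They comprise 20 H2A, 19 H2B, 13 H4, 12 H3 and 6 H1 genes. The study profiled 2 histone marks by chromatin immunoprecipitation and sequencing (ChIP-seq) in wild-type (wt) C57BL/6 mouse colonic organoids, which are 3-dimensional cultures of colon epithelium. One culture received no cytokine, and the other, wt+TNFα, was grown with the inflammatory cytokine TNFα at 40 ng/ml for 3 weeks. H3K4me3, trimethylation of histone H3 at lysine 4, was called as narrow peaks, and H3K27me3, trimethylation at lysine 27, as broad peaks. The authors called peaks with the input control, and 1 input was sequenced per condition. There was 1 library for each mark and condition, so the values describe 4 peak lists and carry no replicate error and no test.

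Histone genes of this kind are short, are found in clusters of many near-identical copies, and are transcribed mainly in S phase. Their mRNAs are not polyadenylated and instead end in a conserved hairpin that is bound by the stem-loop binding protein Slbp. H3K4me3 marks the start of genes that are transcribed or poised for transcription, and H3K27me3 is the mark laid down by Polycomb repressive complex 2. H2A and H2B genes are often arranged head to head around a shared promoter, in which CCAAT boxes and TATA boxes are common. The organoids are expected to be epithelial, and 9 of 12 colonic epithelium markers carried H3K4me3 in each condition. Epcam and Cdx2 were marked in both, Krt20 in wt alone and Car1 in wt+TNFα alone. Muc2 and Lgr5 had no H3K4me3 in either condition and carried H3K27me3 in both. By the same count H3K4me3 was at 1 of 5 leukocyte, 0 of 4 fibroblast and 0 of 3 endothelial markers.

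The 70 members lie in 6 intervals, formed by joining members up to 500 kb apart and adding 10 kb on each side. The Hist1 cluster on chromosome 13 forms an interval of 348 kb with 24 members (Hist1a), an interval of 424 kb with 31 members (Hist1b) and the lone pseudogene Hist1h2al (Hist1c). Hist2 holds 10 members in 70.3 kb on chromosome 3. Hist3 has 3 members on chromosome 11, and the single gene Hist4h4 lies on chromosome 6. The genes had a median length of 532 bp, and 92.9% of members, compared with 39.8% of the annotated genes on the reference chromosomes and 6.01% of protein-coding ones, had transcripts of a single exon only.

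To show what these promoters look like, the stretch between the starts of 4 head-to-head H2A and H2B pairs was read from the GRCm38 reference, plus strand, with every CCAAT or ATTGG and every TATAAA or TTTATA in capitals. The first pair has the shortest distance between starts, the second the shortest among pairs of 2 protein-coding genes, and the last 2 had no peak in any list.

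Hist3h2bb-ps and Hist3h2a, chr11:58954513-58954684: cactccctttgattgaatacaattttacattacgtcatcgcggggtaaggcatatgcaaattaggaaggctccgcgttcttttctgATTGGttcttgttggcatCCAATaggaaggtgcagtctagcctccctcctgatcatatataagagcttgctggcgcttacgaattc
Hist1h2ae and Hist1h2bg, chr13:23571221-23571395: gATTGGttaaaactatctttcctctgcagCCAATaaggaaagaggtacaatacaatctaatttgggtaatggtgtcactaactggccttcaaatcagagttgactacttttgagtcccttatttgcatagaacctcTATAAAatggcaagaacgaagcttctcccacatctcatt
Hist1h2ap and Hist1h2br, chr13:21833508-21833742: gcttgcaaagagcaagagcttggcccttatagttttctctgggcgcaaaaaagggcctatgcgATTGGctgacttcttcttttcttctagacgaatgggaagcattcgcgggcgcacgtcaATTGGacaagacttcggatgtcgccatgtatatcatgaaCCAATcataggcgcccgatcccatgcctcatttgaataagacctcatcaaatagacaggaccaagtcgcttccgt
Hist2h2ac and Hist2h2be, chr3:96220881-96221118: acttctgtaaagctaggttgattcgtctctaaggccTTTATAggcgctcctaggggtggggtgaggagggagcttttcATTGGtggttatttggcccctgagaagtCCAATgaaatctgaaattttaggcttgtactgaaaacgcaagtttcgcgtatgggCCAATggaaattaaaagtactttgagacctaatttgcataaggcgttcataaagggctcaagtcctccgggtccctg

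The first 2 pairs lay under H3K4me3 in both conditions and hold 2 CCAAT or ATTGG words each. The third, from the part of Hist1a without peaks, holds 3 such words and is found 2 times in the genome. Its other copy is the stretch between Hist1h2bq and Hist1h2ao, which contains it in full as the reverse complement. The fourth, from Hist2, also holds 3 of these words and occurs 1 time, so that the pairs without a peak hold the same kinds of word as those with one.

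Across all members, CCAAT or ATTGG lay within 250 bases before to 50 after the gene start in 59 of 70 (84.3%), compared with 38.4% of the 55413 genes placed on the reference chromosomes. A match on either strand was counted, and overlapping matches were each counted. All 20 H2A and all 19 H2B genes held this word, as did 11 of 12 H3 genes and 5 of 6 H1 genes, whereas 4 of 13 H4 genes (30.8%) did. At least 2 copies were present in 70% of members and in 11% of all genes. TATAAA or TTTATA was found at 37 members (52.9%) and at 17.1% of all genes. At the gene ends, a hairpin of 16 bases was searched on the sense strand from 100 bases before to 50 after the annotated end. It starts with GG, has a stem of 6 paired bases and has a loop of 4 bases that begins with T. Such a hairpin was present at 35 members (50%) and at 62 of the 55413 genes (0.112%), members included. The count depends on where the annotation ends a gene, so a member without a match in this window may still hold the hairpin elsewhere. With the stem in capitals, the form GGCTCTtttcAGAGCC was found at 21 members of the H1, H2A, H2B and H3 types, and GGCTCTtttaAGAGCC at 6. The form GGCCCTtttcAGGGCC was found at 5 members, all of them H4 genes. These elements were present both at the 27 members with no peak and at the 41 with H3K4me3. The shares were 88.9% and 80.5% for CCAAT or ATTGG, 63% and 46.3% for TATAAA or TTTATA, and 48.1% and 53.7% for the hairpin.

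**Figure D1:**
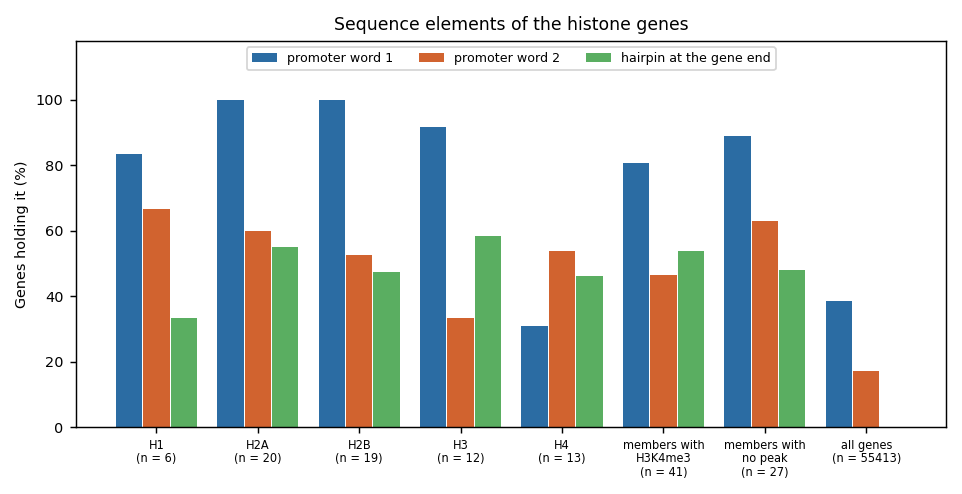
Share of genes (y axis, %) that hold promoter word 1 (CCAAT or ATTGG), promoter word 2 (TATAAA or TTTATA) or the hairpin at the gene end, by histone type, for members with H3K4me3 or with no peak, and for all genes. All H2A and H2B genes hold word 1 and 30.8% of H4 genes do. The hairpin was found in the window searched around the annotated end at 50% of members and 0.112% of all genes.

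H3K4me3 was present at the promoters of most histone genes, and the set of marked genes was almost the same with and without TNFα. A promoter was taken as 1000 bp on each side of every annotated transcript start, and any overlap with a peak was counted. In wt organoids 40 of 70 members had an H3K4me3 peak, where the share over all genes was 24.3%. In wt+TNFα organoids 41 members had one, where the share over all genes was 24.7%. Against protein-coding genes alone the contrast was small, since 56.7% of protein-coding members and 50.5% of all protein-coding genes were marked in wt. Marked genes were unevenly spread. In wt, H3K4me3 was at 10 of 13 H4 genes, 8 of 12 H3 genes, 10 of 19 H2B genes, 10 of 20 H2A genes and 2 of 6 H1 genes. By interval it was at 25 of 31 members of Hist1b, 12 of 24 of Hist1a, 2 of 3 of Hist3, the single gene of Hist4 and 0 of 10 of Hist2. The counts in wt+TNFα differed by 1 gene, an H2B gene of Hist1b.

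**Figure D2:**
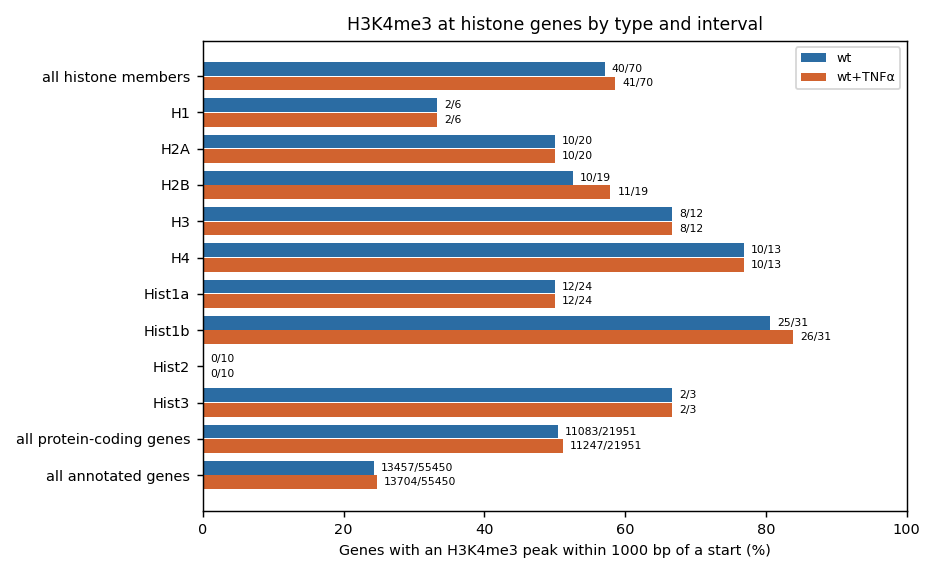
Share of genes (x axis, %) with an H3K4me3 peak within 1000 bp of a start in wt and wt+TNFα, for all members, by histone type, by interval, and for all protein-coding and all annotated genes, with counts beside the bars. Among members the conditions differ by 1 gene, Hist1b stands at 25 of 31 in wt and Hist2 at 0 of 10.

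That gene was Hist1h2be, the only member with a promoter peak in 1 condition alone. The share of all genes with H3K4me3 in wt+TNFα alone was 0.851%, and the share in wt alone, which no member showed, was 0.406%. The peak had a fold enrichment over input of 6.74 and was 630 bp wide (chr13:23620280-23620909). It lay 3′ of the annotated start, where the long GENCODE model of Hist1h2be overlaps Hist1h1e, so its assignment to either gene is uncertain. RefSeq gives Hist1h2be a second start at position 23585970, near the other end of the gene. A peak covered that start in both lists, at a fold enrichment of 16.2 in wt and 21.9 in wt+TNFα.

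The peaks over histone genes were low ones of their lists. Taking for each member the peak with the most overlap, fold enrichment over the 40 members marked in both conditions ranged from 4.54 to 26.2 with a median of 14.2 in wt. In wt+TNFα it ranged from 6.15 to 26.2 with a median of 14.1. The medians over all H3K4me3 peaks were 24.6 in wt and 27 in wt+TNFα. Because neighbouring genes share peaks, the members correspond to 28 peaks in wt and 29 in wt+TNFα, of which 14 in each list covered the promoters of 2 or 3 members. Of these peaks, 27 of 28 in wt and 29 of 29 in wt+TNFα lay below the median fold enrichment of their list. The exception was the peak over Hist1h3e, an H3 gene, at 26.2 in wt. None of the member peaks was among the upper 50% of its list by −log10 q value.

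The genes that make or handle these histones had higher peaks by median. In a list of 25 factors of histone gene transcription and mRNA 3′ processing, including Npat, the S-phase activator of histone genes, Hinfp, which binds H4 promoters, and Slbp, all 25 had H3K4me3 in both conditions. Their median fold enrichment was 35.7 in wt and 39.2 in wt+TNFα. The lowest of the 25 stood at 15 and 19.9, within the range of the members. Npat stood at 35.7 and 43.6, Hinfp at 39.5 and 41, and Slbp at 27 and 33.4. All 6 histone chaperone genes of a second list (median 37.3 and 30.4) and 8 of 13 replication-independent histone genes (median 31.8 and 32.6) were also marked. Among the latter, H3f3a, which encodes H3.3, was at 33.4 and 33.8 and H2afz, which encodes H2A.Z, was at 34 and 47.2. The lowest of the 8, H2afj at 22.9, exceeded the wt value of every member but Hist1h3e. The variant genes H2afx, H1fx, H1foo, H1fnt and H2afy2 had no H3K4me3 promoter peak in either list. Of these, H1fx, H1foo and H2afy2 carried H3K27me3 in both lists, and H2afx and H1fnt in neither.

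Sequence that recurs in the genome, where a read may not map to 1 site alone, was measured for each promoter as the share of its 150-base words with another exact copy on either strand. Among the 41 members with H3K4me3, this share ranged from 0% to 22.5% with a median of 7.24%. In the 7 of them with no recurring word, fold enrichment ranged from 8.12 to 17.9 in wt, where 6 of them had a peak, and from 6.39 to 24.3 in wt+TNFα. The 34 members with some recurring words had medians of 13.3 in wt and 14 in wt+TNFα, compared with 14.7 and 15.2 for those with none. The part of recurring sequence in peak height was not tested.

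Within these bounds, single genes differed widely. The lowest wt values were those of the H2B gene Hist1h2bb (4.54), the H4 gene Hist1h4f (4.76), the H2A gene Hist1h2ab (7.41), the H4 gene Hist1h4b (7.76) and the pair of Hist1h2ad and Hist1h2bf under 1 peak (7.87). After Hist1h3e, the highest were the pair of Hist1h2ac and Hist1h2bc (20.5) and the pair of Hist1h2ah and Hist1h2bk (20). In wt+TNFα the highest were the H3 gene Hist1h3f (26.2), the H1 gene Hist1h1c (24.3), the H4 gene Hist1h4k (23.6) the H3 gene Hist1h3e (20), and Hist1h2af and the H3 gene Hist1h3g under 1 peak (19.4). The lowest there were Hist1h4b (6.15), the H1 gene Hist1h1a (6.39), Hist1h2be (6.74), and Hist1h2ab (8.8). The peak of Hist1h2ab also took the larger part of the Hist1h3b promoter in wt+TNFα, while the peak over the Hist1h3b gene itself stood at 8.61 in wt and 6.37 in wt+TNFα. By type, medians in wt lay between 13 for H1 and 15.1 for H3.

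Comparing conditions by the peak with the most overlap, fold enrichment was higher in wt+TNFα at 22 of 40 members and lower at 18, and the rank of the peak in its own list was higher at 21 and lower at 18. These counts take members under a shared peak more than once. At Hist1h3b and Hist1h2bb, both counted as higher by fold enrichment, they set different peaks side by side, and Hist1h3b was level by rank. At Hist1h2bh, counted as lower, and Hist1h3f, counted as higher, they set 1 wt peak over both genes, with its summit 636 bp downstream of the start of Hist1h3f, beside the separate wt+TNFα peak of each gene. The values of single genes moved in both directions. Hist1h4f was at 4.76 in wt and 12.4 in wt+TNFα, Hist1h4k at 15.7 and 23.6, Hist1h3f at 17.5 and 26.2, and Hist1h1c at 17.9 and 24.3. In the opposite direction, Hist1h3e was at 26.2 and 20, and Hist1h2ac and Hist1h2bc at 20.5 and 14.9. With 1 library per condition, whether these differences exceed the spread between cultures could not be tested. The lists also differ in total, at 11552 peaks in wt and 11894 in wt+TNFα. The wt+TNFα H3K4me3 library and the wt+TNFα input were the more deeply sequenced by the read totals that the authors state. The part of depth in these differences was not tested.

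**Figure D3:**
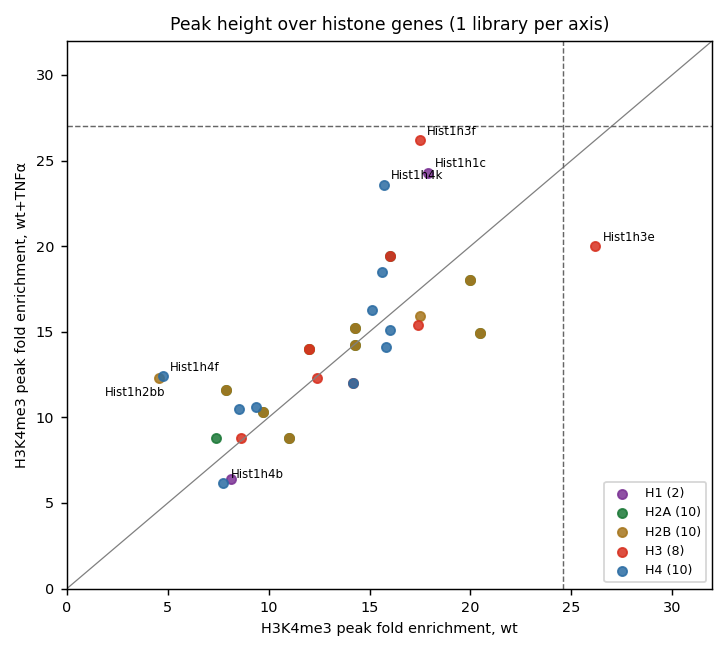
H3K4me3 fold enrichment over input of the peak with the most promoter overlap for the 40 members marked in both conditions, wt (x axis) against wt+TNFα (y axis), coloured by histone type with the number of genes; genes under 1 peak share a point, where the colour drawn last is seen, and dashed lines are the medians of all peaks of each list. Hist1h3e is the only member past the wt median, no member passes the wt+TNFα median, and 22 members lie above the diagonal and 18 below it.

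At most marked members the peak reached into the gene, the exceptions being Hist1h2bb in both lists and Hist1h2bm in wt+TNFα. The summit lay a median of 222 bp downstream of the start in both conditions, and 19 of 40 marked members in wt and 21 of 41 in wt+TNFα were under H3K4me3 over their full length. The start base itself was covered at 34 members in each condition. It was left uncovered at Hist1h2bb, Hist1h3b, Hist1h4b, Hist1h4c and Hist1h4i in both lists, at Hist1h4f in wt, and at Hist1h2be and Hist1h2bm in wt+TNFα. Of the 14 head-to-head H2A and H2B pairs, whose starts were 172 to 305 bases apart (median 246), 8 had 1 peak over both starts in wt and 7 in wt+TNFα. The pair that differed was Hist1h2aj and Hist1h2bm, whose wt+TNFα peak of 882 bp ended before the start of Hist1h2bm. The remaining 6 pairs had no H3K4me3 peak at either promoter. The widest wt peaks covered Hist1h2ac and Hist1h2bc (3300 bp), Hist1h2ai, Hist1h2bl and Hist1h3h (2919 bp), Hist1h2bh and Hist1h3f (2509 bp), Hist1h2ae and Hist1h2bg (2450 bp), and Hist1h2af and Hist1h3g (2400 bp). In wt+TNFα the peak over Hist1h2ac and Hist1h2bc was again the widest, at 3247 bp, while Hist1h2bh and Hist1h3f lay under 2 separate peaks of 828 and 1444 bp.

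**Figure D4:**
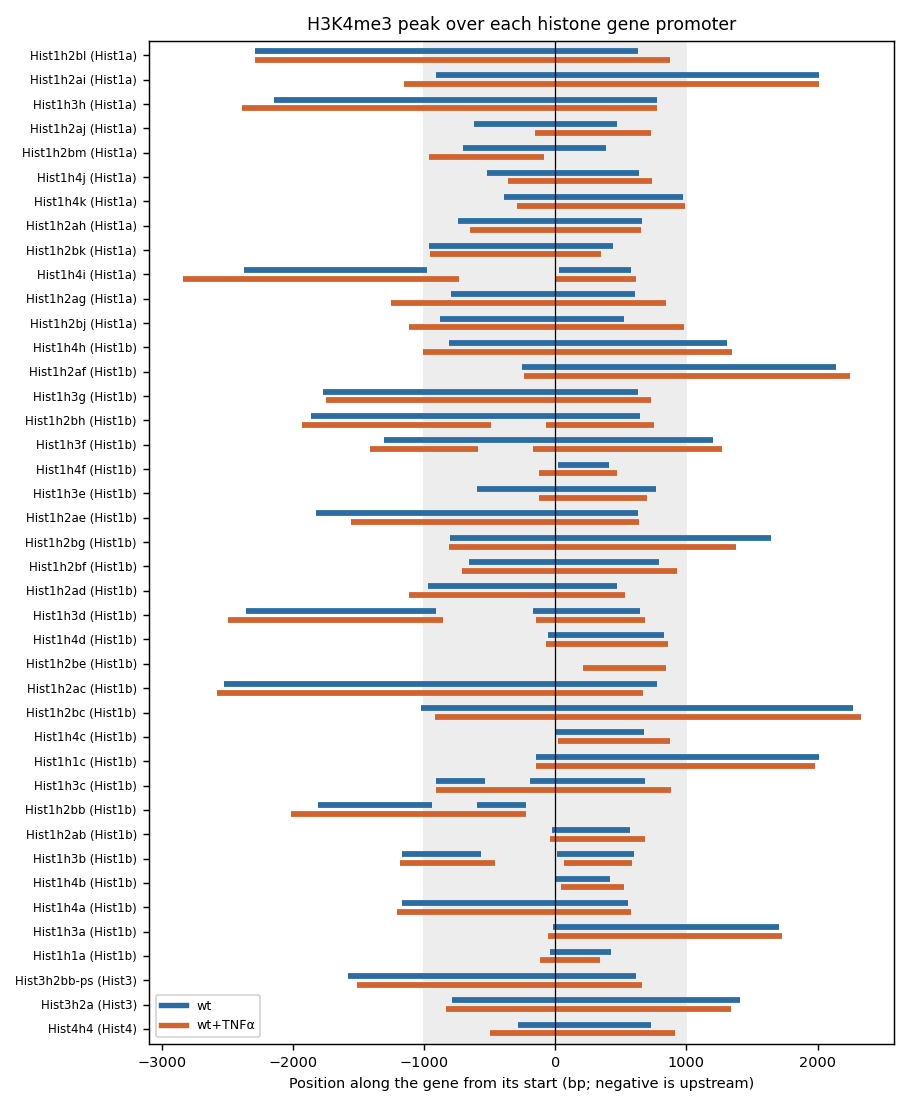
Extent of every H3K4me3 peak that overlaps the promoter of each of the 41 marked members in wt and wt+TNFα, as the position in bp from the gene start along the direction of transcription (x axis), with the window of 1000 bp on each side shaded. Most peaks run from near the start over the gene, and Hist1h2be is the only row with a peak in wt+TNFα alone.

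Base by base, the edges of peaks differed at nearly all marked members, as they did at other genes. After subtraction of one list from the other, 33 members had H3K4me3 bases gained in wt+TNFα, where the share over all genes was 19.4%, and 17 had bases lost, where the share was 9.94%. Since only genes with a peak can gain or lose in this sense, the comparison is better made among genes with a peak in both lists. There, gained bases were found at 32 of 40 members (80%) and at 77.8% of all such genes, and lost bases at 17 (42.5%) and 40%. The same 10 members held both. Where bases were gained or lost at these genes, the median gain was 104 bp at members and 109 bp at all genes, and the median loss was 94 bp at members and 48 bp at all genes. The balance of gains over losses depended on the window, since with promoters of 500 bp on each side bases were gained at 15 members and lost at 14. Gained pieces of at least 200 bp were at 10 members, where the share over all genes was 3.82%, and lost pieces of that size at 5, where it was 1.04%. Such gains were thus at 10 of the 41 members with a wt+TNFα peak and at 15.4% of all genes with one. Such losses were at 5 of the 40 members with a wt peak and at 4.3% of all genes with one. Members under a shared peak were each counted. The longest gained piece (630 bp) was the peak of Hist1h2be, followed by those at Hist1h2bj (462 bp) and at Hist1h3c and Hist1h2bb (340 bp each, the gap between 2 wt peaks that 1 wt+TNFα peak spans). Pieces of 211 to 257 bp were gained at Hist1h2ag, Hist1h2aj, Hist1h2bl, Hist1h2bm, Hist1h4i and Hist4h4. Hist1h3e (471 bp), Hist1h2aj and Hist1h2bm (467 bp each, from 1 shifted peak), and Hist1h2bh and Hist1h3f (413 bp each, from 1 split peak) held the lost pieces.

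H3K27me3 was rare at histone promoters. Only 4 members had it in wt, where the share over all genes was 14.2%, and the same 4 in wt+TNFα, where the share was 23.1%. With promoters of 500 bp on each side the count was 3 in wt, without Hist3h2a, and 2 in wt+TNFα, without Hist3h2a and Hist3h2bb-ps. Of these, 3 were the whole Hist3 cluster. The H2B gene Hist3h2ba, the pseudogene Hist3h2bb-ps and the H2A gene Hist3h2a lay under or at the edge of 1 broad peak that was 12649 bp wide and enriched 3.3-fold in wt, and 13329 bp wide and enriched 4.15-fold in wt+TNFα. Those values are above 96.4% and 99.5% of the peaks of their lists. Hist3h2ba had no H3K4me3, and its promoter window was fully covered by H3K27me3 in both conditions. Hist3h2bb-ps and Hist3h2a shared an H3K4me3 peak of 2195 bp (fold enrichment 14.3) in wt and of 2173 bp (15.2) in wt+TNFα, which overlapped the end of the broad peak in both conditions. The fourth was the lone pseudogene Hist1h2al, at 2.51 in wt and 2.37 in wt+TNFα, with no H3K4me3. Hist4h4, an H4 gene that lies beside H2afj, had H3K4me3 at 16 and 15.1 and no H3K27me3. By bases, H3K27me3 was gained at 1 member (Hist1h2al), where the share over all genes was 17.1%, and lost at 2 (Hist3h2a and Hist3h2bb-ps), where the share was 3.39%.

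Between the histone genes of Hist1b, more sequence was covered by H3K27me3 in the wt+TNFα list, without reaching a histone promoter. Coverage of this interval was 0.831% in wt, in 3 peaks, and 9.41% in wt+TNFα, in 15 peaks with fold enrichment between 1.71 and 2.24. The nearest of these peaks was 3119 bp from a member start, and the genes under them included Trim38, a ubiquitin ligase gene, and the solute carrier genes Slc17a1, Slc17a2 and Slc17a3. Over all chromosomes the lists covered 3.74% in wt and 11.1% in wt+TNFα, and the wt+TNFα list held 60540 peaks against 30594, so the growth of the list moves with this difference and its part was not tested. The names of the other 3 lists mention a spike-in and that of the wt+TNFα H3K27me3 list does not, so these lists may have been processed differently. In Hist1a coverage was 8.07% and 8.74%, at Pom121l2, Prss16 and sites with no protein-coding gene, at least 20022 bp from any member start.

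No peak of any list lay at the promoter of 27 members, a share of 38.6% where 54.8% of all genes had none. Among protein-coding members the share was 40.3%, compared with 26.3% of all protein-coding genes. These 27 were concentrated in 2 stretches. The stretch in Hist1a, chr13:21750896-21855356, ran over 104 kb and held 12 members, Hist1h2ak, Hist1h2bn, Hist1h1b, Hist1h3i, Hist1h2an, Hist1h2bp, Hist1h2bq, Hist1h2ao, Hist1h4m, Hist1h4n, Hist1h2ap and Hist1h2br. The other held the whole Hist2 cluster, Hist2h2ab, Hist2h2ac, Hist2h2be, Hist2h3c2, Hist2h2aa2, Hist2h2aa1, Hist2h3c1, Hist2h4, Hist2h3b and Hist2h2bb, together with Bola1, a gene of mitochondrial iron-sulfur protein assembly. Up to the next peak on each side it spanned 94.3 kb, chr3:96194390-96288702. Neither stretch contained a peak of either mark in either condition. Such gene-rich gaps were uncommon. Of 7119 gaps of at least 50 kb between peaks in the genome, 1515 held a protein-coding start. Among these, 62 held at least as many protein-coding starts as the 12 of Hist1a and 66 at least as many as the 11 of Hist2. The 2 gaps were sought inside histone clusters, where gene starts lie close together.

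Recurring sequence was found in part of both stretches. In the Hist1a stretch, 4 promoters consisted wholly of 150-base words with another copy in the genome (100% at Hist1h2bq, Hist1h2ao, Hist1h2ap and Hist1h2br), and the H4 genes Hist1h4m and Hist1h4n were at 76.3% and 69.9%. The other 6 of its members lay between 0% and 16.4%, within the range of members that had H3K4me3. Among them, Hist1h1b, an H1 gene, had 0%. In Hist2, the H3 genes Hist2h3c2 and Hist2h3c1 were at 65.6% and 66.6%, the H2A genes Hist2h2aa2 and Hist2h2aa1 at 44.1% and 41.1%, Hist2h2bb at 27.1% and Hist2h3b at 13.5%. The remaining 4, Hist2h2ab, Hist2h2ac, Hist2h2be and Hist2h4, had 0%. A share of at least 50% was found at 8 of 70 members, at 6.25% of all genes and at 0.101% of genes with H3K4me3. Over their full length, 41.7% of the words of the Hist1a stretch and 8.95% of those of the Hist2 stretch recurred. Shares of at least 50% thus occurred at 8 of the 22 members in these stretches, and 11 of the 22 had shares under 20%, as did 39 of the 41 members with H3K4me3.

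**Figure D5:**
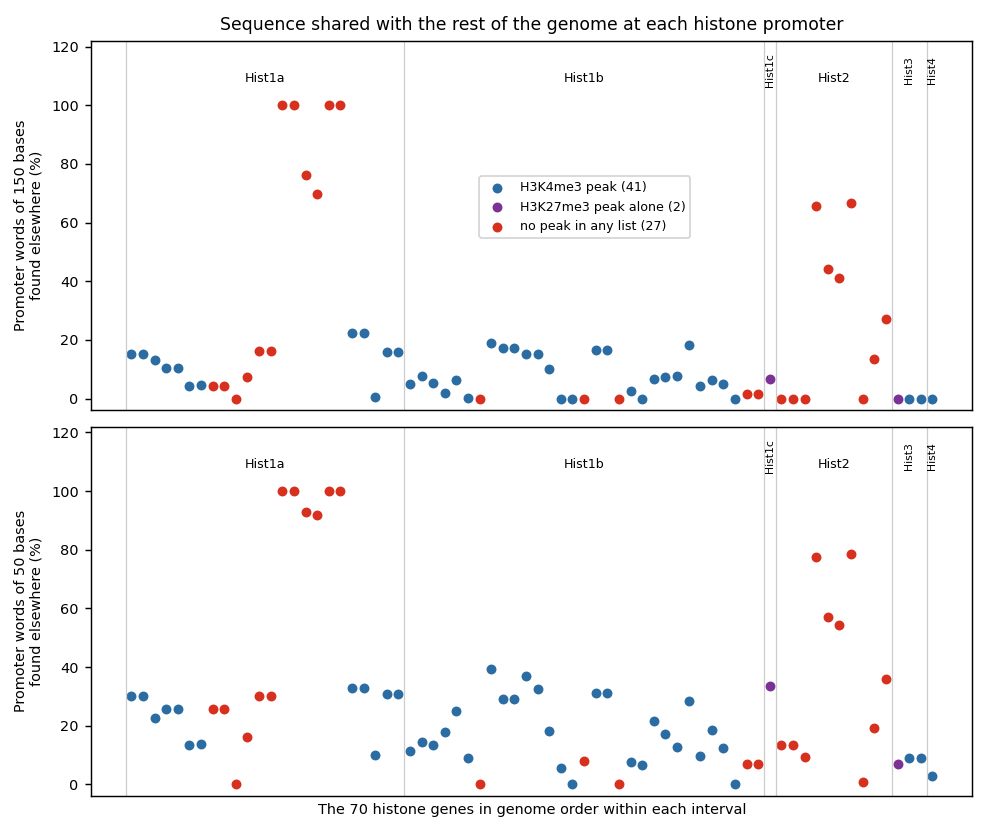
Share of each promoter's words (y axis, %) that occur elsewhere in the genome, for words of 150 bases (top) and 50 bases (bottom), with the 70 members in genome order within each interval and coloured by whether a peak was found. The highest values, up to 100%, are all members with no peak, but members with no peak are also found at 0%.

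The 5 other members without a peak were scattered in Hist1b. Hist1h1t encodes the testis H1 histone, and Hist1h2ba and Hist1h2aa form a head-to-head pair for the testis forms of H2B and H2A. Their promoters had recurring shares of 0% (Hist1h1t) and 1.62%. The somatic H1 genes Hist1h1e and Hist1h1d, both at 0%, were the others. For Hist1h1d the annotation decided the outcome. The GENCODE start at position 23553262 lies 1770 bp upstream of the RefSeq start at 23555032, which an H3K4me3 peak covered in both lists (chr13:23554910-23556574 at a fold enrichment of 22.3 in wt, and 18.2 in wt+TNFα). With RefSeq starts in place of GENCODE ones, 42 members had H3K4me3 in each condition and 26 had no peak. The 6 H1 genes thus comprised Hist1h1a (8.12 in wt and 6.39 in wt+TNFα) and Hist1h1c (17.9 and 24.3) with a promoter peak, Hist1h1d with a peak at its RefSeq start alone, and Hist1h1b, Hist1h1e and Hist1h1t with none.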

How the data were processed

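After trimming, the authors mapped reads to mm10 (GRCm38) with BWA 2.2. SAMtools 1.11 was used for duplicate removal, and blacklisted regions, which are not given in the sources used here, were excluded. MACS2 2.1.0 called peaks relative to input. The list names carry a tag that may stand for a mapping quality filter, which the methods do not describe. The part of such a filter at promoters without a peak was not tested. The deposited lists give for each peak a fold enrichment over input (a linear ratio), −log10 p-value and −log10 q-value and a score. Input files were not analysed here, and the lists hold no depth. The labels give 40 M (H3K4me3) or 60 M (H3K27me3) reads, where M is 1000000. Read totals stated elsewhere by the authors entered no calculation here and exceed these for both marks. They give more H3K4me3 reads and more input reads in wt+TNFα than in wt, and similar H3K27me3 totals. Promoters were 1000 bp on each side of GENCODE vM21 transcript starts, and overlap of at least 1 bp (bedtools 2.31.1) counted. Gains and losses were peak bases left after subtraction of the other list. Words of 150 bases were counted over the reference, at every base for members and every 20 bases for other genes. The scripts for promoter overlap, gains and losses, and word counts were checked on simulated lists and sequence. Each condition had 1 library, so no test was run. RefSeq starts (GRCm38.p6) matched all 70 members. Members, lists and naming rules (single-condition peaks, H3K27me3, no peak, pieces of at least 200 bp, the 5 extremes, small clusters, H1) were chosen with earlier results of these data known. Python 3.11.15, pandas 2.3.3 and Numba 0.67.0 were used.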

Additional observations from a re-analysis of the deposited data

How the results depend on the processing

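No paired analysis was possible because the result comes from no test and each condition had 1 library. Of 84 values under alternative settings, 63 were within 1.5 times of the reported count, and 21 were not. With promoters of 500 bp on each side, H3K27me3 was at 2 members in wt+TNFα, H3K4me3 was gained at 15 and lost at 14, and H3K27me3 was lost at 1. With 2000 bp, H3K4me3 was lost at 27. Among protein-coding members alone, H3K27me3 was at 2 in each condition, gained at 0 and lost at 1. With an overlap of at least 200 bp, H3K4me3 was gained at 10 and lost at 5. When peaks were kept if their −log10 q exceeded that list's median, H3K4me3 was at 0 members in both conditions, with 0 gains and 0 losses, and 66 members had no peak. When whole peaks were subtracted, H3K4me3 was gained at 1 member and lost at 0, and H3K27me3 was gained and lost at 0. Stretches with no peak numbered 10 at a minimum of 20 kb and 1 at 100 kb, against 2 at 50 kb. RefSeq starts, an alternative chosen after seeing the data, left every count they were applied to within 1.5 times. The count of members with a peak in 1 condition alone was not among these, and by RefSeq starts Hist1h2be had H3K4me3 in both lists. The H3K4me3 libraries were not brought to equal depth. A promoter without a peak is one where none was called, not one without the mark.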
